A study of Schizosaccharomyces pombe with 12 samples.

Results

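The fission yeast Schizosaccharomyces pombe carries in its nuclear genome 39 genes named mrpl or mrps plus a number, the names given to mitochondrial ribosomal protein genes. They were chosen by that name alone, with antisense entries left out, and make up 39 of the 6936 genes quantified. By symbol, 31 of them (mrpl) are counted here with the large subunit and 8 (mrps) with the small subunit. The annotated products of mrpl50 and mrps26 name only the protein and no ribosomal role. A further 39 genes whose annotated product is a mitochondrial ribosomal protein carry other names and were described only as a comparison list.

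Mitochondria keep a ribosome of bacterial descent that translates the few messages of mitochondrial DNA, mostly core subunits of the respiratory chain and of ATP synthase. Nearly all of its proteins are encoded in the nucleus, made in the cytosol and imported, so its assembly draws on both genomes. Proteins with a u before the family name (uL3m, uS12m) have relatives in bacterial and cytosolic ribosomes, those with a b (bL32m) in bacterial but not in cytosolic ribosomes, and those with an m (mL58) belong to mitochondrial ribosomes.

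As part of a study of the interactions of transcription factors, messenger RNA was sequenced from cells growing exponentially in rich YES medium at 30 °C, in 4 groups of 3 libraries made from 300 ng of total RNA with a stranded kit. The ntu_WT wild type is h+ with leu1-32, ura4-D18 and ade6-M210. The 2 deletion groups, ntu1_KO (ntu1D::kanMX) and ntu2_KO (ntu2D::kanMX), are also h+ with ura4-D18 and leu1-32 but carry ade6-M216. The fourth group, wt_WT, is an h- wild type with leu1-32, ura4-D18 and ade6-704. All groups thus share leu1-32 and ura4-D18, each deletion differs from ntu_WT in the ade6 allele as well, and wt_WT differs from ntu_WT in mating type and ade6 allele. The labels give each group 1 strain name, the same one for both wild types in spite of their genotypes, and do not say whether replicates were separate cultures. The p-values below therefore measure the spread between these libraries, which may be technical.

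Total estimated counts per library ran from 3177147 to 7556338 in the 9 h+ libraries and from 11308010 to 11782294 in wt_WT. Ribosomal RNA took 0.370 to 0.697% of counts in wt_WT and 0.680 to 6.64% in the h+ libraries. Pairs of replicate libraries differed by 2.996 to 62.5 times the counting variance over all genes (chi-square per degree of freedom) and by 1.38 to 4.12 times over the 39 genes, with the widest pair in ntu1_KO over all genes and in ntu2_KO over the 39. Each targeted transcript was lower in its own deletion group than in ntu_WT but was not absent. The source of the remaining counts was not tested. The ntu1 transcript averaged 93.1 ± 3.76 CPM in ntu_WT and 10.4 ± 1.65 in ntu1_KO, and ntu2 averaged 219.0 ± 14.6 in ntu_WT and 45.8 ± 7.44 in ntu2_KO (SD, n = 3 each). CPM here is counts per 1e+06 counts of a library after TMM scaling, which corrects for differences in composition. Of the mating-type transcripts, mat2-Pc was at 0 counts in wt_WT and 14.4 CPM in ntu_WT, and mat1-Mc averaged 40.4 CPM in wt_WT. It had 9 counts (1.26 CPM) in ntu_WT replicate 3 and 0 in the other 8 h+ libraries. Among the further h- markers, mfm2 averaged 25.2 CPM in wt_WT and 1.31 CPM in ntu_WT. The markers mfm1 and mfm3 were too low to tell the groups apart. In wt_WT and ntu_WT mfm1 averaged 0.453 and 0.262 CPM, and mfm3 averaged 0.425 and 0.645 CPM.

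The 39 genes were present at moderate levels, most of them within 2-fold of their median. Levels were compared between genes in the deposited TPM, which is scaled by transcript length. The mean over 12 libraries ran from 21.5 TPM for mrpl20 to 221.6 TPM for mrpl32, a 10.3-fold range, and 31 of the 39 genes lay within 2-fold of their median of 90.6 TPM. The median over all genes was 31.9 TPM, and in each library the median member stood between the 74.9 and 78.8 percentile of all genes. All 39 were detected in every library. A library held 8292 to 30189 counts for the set, or 0.251 to 0.275% of its total. The lowest count of any member in any library was 32.0, and all 39 passed the filter on low counts.

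Among the neighbouring lists, the 39 mitochondrial ribosomal protein genes with other names had a median level of 92.9 TPM, close to that of the mrpl and mrps genes. The 34 listed mitochondrial translation factors had a lower median of 40.6 TPM. The 39 nuclear genes for subunits of the respiratory chain and ATP synthase, some of whose complexes also hold subunits made by the mitochondrial ribosome, had a median of 368.2 TPM. The 141 cytosolic ribosomal protein genes had a median of 2365 TPM.

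**Figure D1:**
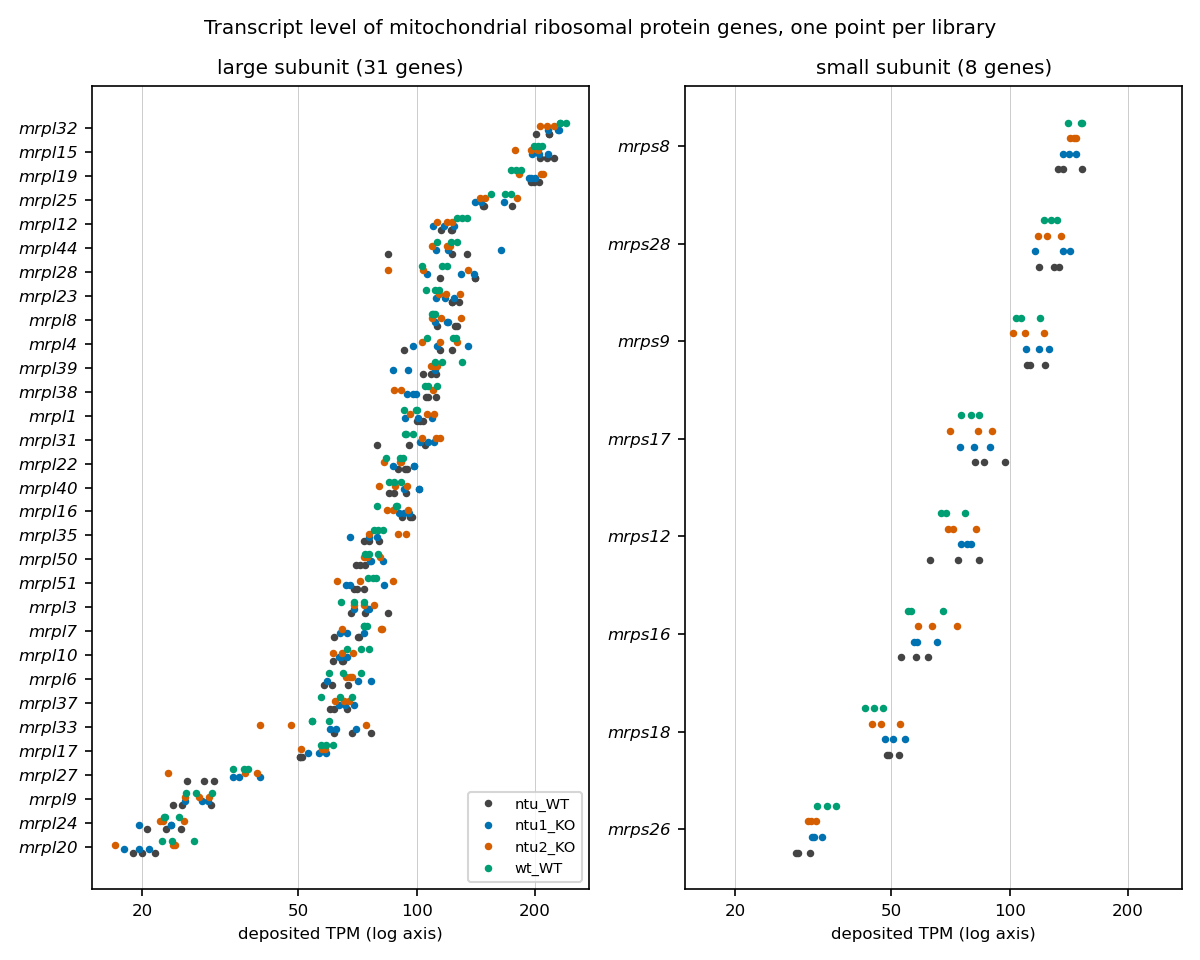
Level of each of the 31 large-subunit and 8 small-subunit genes in deposited TPM (log axis), ordered by the mean over 12 libraries, with 1 point per library coloured by group. The 4 groups lie on top of each other for most genes, and the order runs from mrpl32 at 221.6 TPM down to mrpl20 at 21.5 TPM.

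In the large subunit the most abundant transcripts were mrpl32, mrpl15 and mrpl19. The gene mrpl32 codes for bL32m, a bacterial-type protein, and its level ran from a lowest value of 201.5 through a median of 220.6 to a highest value of 240.8 TPM over the 12 libraries. The gene mrpl15 codes for mL57, a mitochondria-specific protein, with 178.3, 204.4 and 224.2 TPM as lowest, median and highest values. The gene mrpl19 codes for uL11m, whose bacterial relative lies at the base of the stalk where translation factors bind, with 174.4, 195.6 and 210.4 TPM. The ranges of these 3 genes overlapped, so that their order among themselves was not fixed in every library.

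At the low end of the large subunit stood mrpl20, mrpl24 and mrpl9. The gene mrpl20 (mL58, a mitochondria-specific protein) had 17.1, 21.2 and 27.1 TPM as lowest, median and highest values. The gene mrpl24 (bL28m) had 19.7, 22.9 and 25.6 TPM. The gene mrpl9 codes for uL3m, which in bacteria is among the first proteins to bind the large ribosomal RNA and reaches towards the peptidyl transferase centre, and it had 23.9, 27.7 and 30.2 TPM. These ranges also overlapped, and all lay below the lowest value of mrpl15 or mrpl32.

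In the small subunit the highest level belonged to mrps8, coding for uS8m, whose bacterial relative binds the central domain of the small ribosomal RNA. It had 132.8, 144.1 and 153.4 TPM as lowest, median and highest values. The gene mrps28 (uS15m), whose bacterial relative also binds that domain, had 116.3, 128.8 and 142.3 TPM, and mrps9, annotated as a putative subunit with no family name, had 101.8, 111.6 and 126.0 TPM. The lowest small-subunit genes were mrps26 with a mean of 31.8 TPM, mrps18 with 48.6 TPM and mrps16 with 60.6 TPM, all annotated without a family name in the u, b and m system. The median over the small subunit was 78.4 TPM and that over the large subunit 90.8 TPM. Grouped by ancestry, the medians were 116.8 TPM for the 5 bacterial-type genes, 90.7 TPM for the 16 universal ones, 87.4 TPM for the 10 mitochondria-specific ones and 68.2 TPM for the 8 with no family name, with lowest members between 21.5 and 31.8 TPM in all 4 classes. In CPM per kb of annotated coding length the same medians were 188.0, 110.5, 77.3 and 109.1, so that the lowest class differed between the scales.

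The order of the levels depended on the transcript length by which counts were divided. Dividing the CPM by the annotated coding length instead, mrps16 rose from rank 32 to rank 1 of 39, at 333.3 CPM per kb of coding length, and it ranked second when the annotated exon length was used. The gene mrps26 moved from rank 36 to rank 8 and mrpl24 from rank 38 to rank 14. The genes mrpl20, mrpl9, mrpl24 and mrps26, the 4 lowest in TPM, have annotated exon lengths of 2183 to 3670 bases, of which 67.4 to 82.1% lies outside the coding sequence, against a median of 43.3% over the 39 genes. For mrps16, the ratio of CPM to TPM, which follows the transcript length used in the authors' quantification, was 2.15 times that of mrpl22 (uL22m), although the annotated exons add up to 729 bases for mrps16 and 961 bases for mrpl22. Spearman's rho between TPM and CPM per kb of coding length was 0.506 over the 39 genes, which share their counts between the 2 scales. The large-subunit median was 1.16 times the small-subunit median in TPM, 0.917 times per kb of exon length and 0.745 times per kb of coding length, so no order of the subunits is drawn from these levels.

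**Figure D2:**
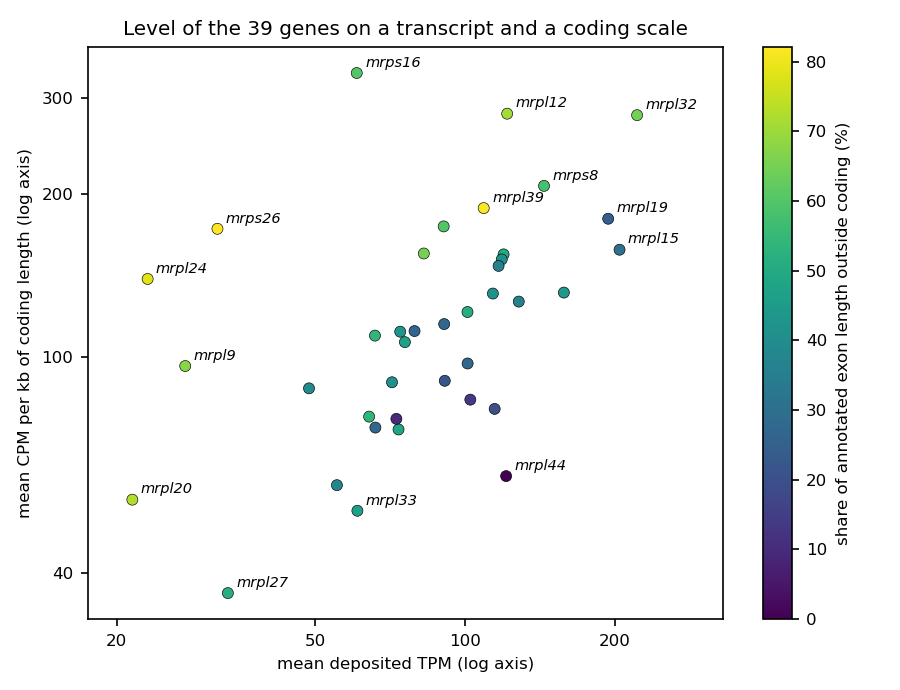
Mean level of the 39 genes in deposited TPM (horizontal, log axis) against mean CPM per kb of annotated coding length (vertical, log axis), coloured by the percentage of annotated exon length outside the coding sequence. The gene mrps16 is highest on the vertical axis at 333.3 but has 60.6 TPM, and mrps26, mrpl24 and mrpl9 lie to the left with over 67% of their exon length noncoding.

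The levels varied little between libraries. The coefficient of variation of TPM over the 12 libraries had a median of 7.30% over the 39 genes and of 8.03% over 3405 other genes in the same range of mean TPM. It was smallest for mrpl50 (4.71%), mrps8 (4.72%) and mrpl32 (5.18%). It was largest for mrpl33 (17.6%), mrpl27 (15.7%) and mrpl44 (15.1%). These 3 had the lowest mean counts of the set, 112.7 for mrpl33, 77.2 for mrpl27 and 134.9 for mrpl44 per library, and the part of counting error in their spread was not tested. The gene mrpl33 codes for uL30m, mrpl44 codes for mL53 and mrpl27 is annotated as subunit L27.

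The summed level of the set lay in the same range in every group. The summed TPM of the 39 genes was 3646 ± 11.5 in ntu_WT, 3679 ± 130.4 in ntu1_KO, 3630 ± 50.5 in ntu2_KO and 3649 ± 38.9 in wt_WT (SD, n = 3 each), and single libraries ran from 3533 to 3783. The ranges of all 4 groups overlapped. Ranked by group mean TPM, the 39 genes kept nearly the same order in any pair of groups, with Spearman's rho between 0.974 and 0.985 over the 39 genes, which share their transcript lengths and sequence composition between groups.

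By the annotation, the genes are short and spread over the genome. Chromosome I holds 11, chromosome II 18 and chromosome III 10. Their median coding length is 531 bases against 1137 bases over 5129 protein-coding genes, and 25 of them (64.1%) have a single exon against 51.6% of protein-coding genes. A divergently transcribed neighbour precedes 26 of the 39 (66.7%) against 54.1% of protein-coding genes. The genes mrpl28 (mL40, a mitochondria-specific protein) and mrps12 (uS12m, whose bacterial relative sits at the decoding site) are divergent neighbours of each other, the only such pair within the set, and mrpl19 is divergent from cox16, which is known for a role in cytochrome c oxidase assembly in budding yeast. Another annotated gene overlaps 34 of the 39 on the opposite strand and 8 on the same strand, the latter being mrpl8, mrps9, mrpl1, mrpl16, mrpl37, mrpl27, mrps26 and mrpl20. No source used here states whether strand was used in counting, so reads of these genes and of their overlapping partners may be split in ways the tables do not show.

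Deleting ntu1 left the mitochondrial ribosomal protein genes without a detected change. No gene passed an adjusted p of 0.05 in edgeR's quasi-likelihood test with Benjamini-Hochberg adjustment over all genes (0 of 39), against a background of 0.740% of the 5808 genes tested. At an unadjusted p under 0.05 the count was also 0 of 39, where 5.89% of all genes passed, and DESeq2 called 0 as well. The median log2 fold change of the 39 genes was 0.00 and that of all genes 0.00. The standard error (SE) of a single gene's log2 fold change ran from 0.06 to 0.21, with a median of 0.09.

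The largest difference belonged to mrpl27. It had 8.1, 9.0 and 10.05 CPM in the ntu_WT libraries and 11.04, 12.8 and 10.3 CPM in those of ntu1_KO. All 3 ntu1_KO values lay above those of ntu_WT, with a log2 fold change of 0.33 ± 0.21 (SE) and an adjusted p of 0.940 in edgeR. The lowest value was that of mrpl38, annotated as putative subunit L38, with 32.9, 34.4 and 33.9 CPM in ntu_WT and 29.9, 31.9 and 29.1 CPM in ntu1_KO. These groups did not overlap either, and the log2 fold change was -0.15 ± 0.11 with an adjusted p of 0.985 in edgeR. Groups that did not overlap were found higher in ntu1_KO for 4 of the 39 genes (6.82% of all genes) and lower for 2 (7.13% of all genes). The small-subunit genes had a median log2 fold change of 0.03, with 1 of 8 below 0, and the large-subunit genes one of -0.03, with 17 of 31 below 0.

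Deleting ntu2 gave no call either (0 of 39 in edgeR, against 0.758% of genes tested). At an unadjusted p under 0.05, 1 of 39 passed, where 9.06% of all genes did, and DESeq2 called 0. The median log2 fold change was 0.02 over the 39 genes and 0.00 over all genes. Only mrpl15 (mL57) had groups that did not overlap, 0 genes higher (6.75% of all genes) and 1 lower (6.51% of all genes). It had 104.3, 111.4 and 106.2 CPM in ntu_WT and 99.2, 87.9 and 99.97 CPM in ntu2_KO. All 3 ntu2_KO values were below the lowest of ntu_WT.

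The lowest value of the set was that of mrpl28 (mL40), and there 1 library stood apart. The ntu_WT libraries had 53.2, 66.1 and 68.8 CPM, and those of ntu2_KO had 47.4, 38.96 and 64.9 CPM. Replicates 1 and 2 of ntu2_KO lay below every ntu_WT library and replicate 3 lay within the ntu_WT range. The log2 fold change was -0.31 ± 0.18 with an adjusted p of 0.661 in edgeR, and without replicate 3 of ntu2_KO it was -0.57 ± 0.14 with an adjusted p of 0.0381. Without replicate 2 of ntu2_KO it was -0.13. Replicate 3 also differed from its fellow libraries for mrpl33 (19.7 CPM against 10.1 and 12.3), mrpl27 (7.7 CPM against 11.4 and 12.3) and mrpl20 (26.5 CPM against 36.0 and 36.1). In ntu2_KO mrpl27 had a log2 fold change of 0.19 ± 0.21 with overlapping groups, which was 0.03 without ntu2_KO replicate 2 and 0.39 without ntu2_KO replicate 3.

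Set against each other, the 2 deletions gave no call among the 39 genes (0 in edgeR and 0 in DESeq2, against 0.103% of genes tested in edgeR). At an unadjusted p under 0.05, 2 of 39 passed, where 6.66% of all genes did. The extremes were mrpl33 and mrpl35. For mrpl33 the log2 fold change was 0.20 ± 0.21, but 0.04 without ntu2_KO replicate 1, 0.09 without ntu2_KO replicate 2, 0.12 without ntu1_KO replicate 2 and 0.53 without ntu2_KO replicate 3. The gene mrpl35, annotated as subunit L35, had 106.1, 99.1 and 89.9 CPM in ntu1_KO and 121.0, 117.1 and 101.7 CPM in ntu2_KO. These groups overlapped, and the log2 fold change was -0.19 ± 0.08 with an adjusted p of 0.709 in edgeR. Groups that did not overlap were found for mrpl40 alone (uL24m, whose bacterial relative lies beside the exit of the peptide tunnel), 1 gene higher in ntu1_KO (5.29% of all genes) and 0 lower (5.04% of all genes).

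**Figure D3:**
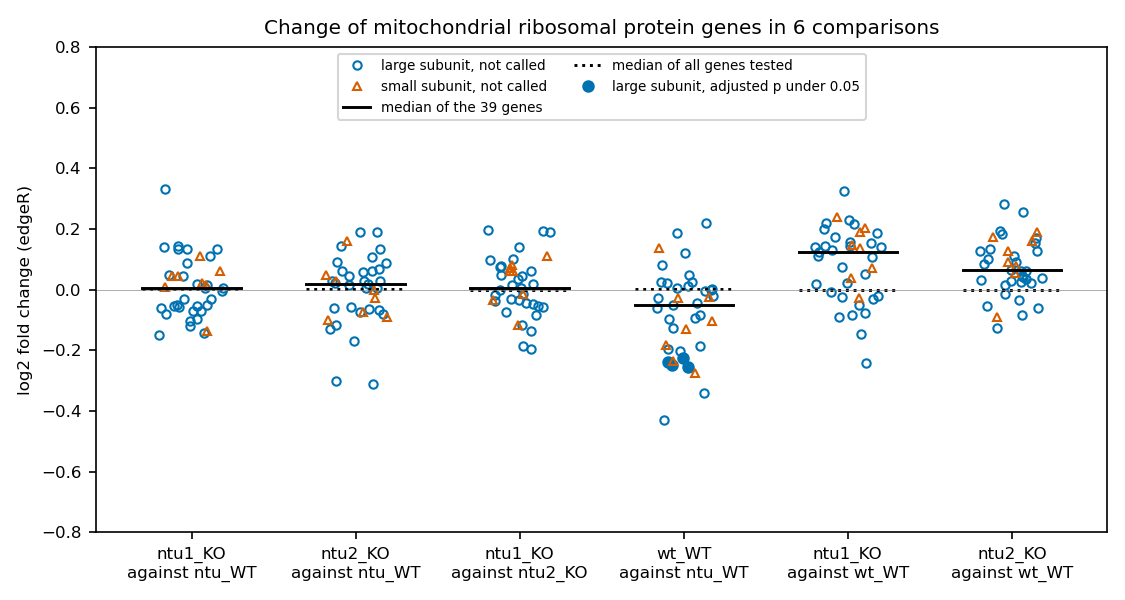
Log2 fold change in edgeR of each of the 39 genes in the 6 comparisons, with circles for the large subunit, triangles for the small subunit and filled symbols for genes called at an adjusted p under 0.05. Solid lines mark the median of the 39 genes and dotted lines that of all genes tested. Filled symbols appear only for 4 large-subunit genes in wt_WT against ntu_WT, and the comparisons that share a control group are not independent.

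The h- wild-type libraries differed from the h+ wild-type libraries by small decreases in 4 large-subunit genes. The wt_WT libraries also differed from those of ntu_WT in depth and in the share of ribosomal RNA. The part of these in any comparison with wt_WT was not tested. In wt_WT against ntu_WT, 4 of 39 genes were lower at an adjusted p under 0.05 in edgeR, against 4.19% of the 5899 genes tested, and 0 were higher, against 4.05%. The 4 genes were mrpl23, mrpl19, mrpl16 and mrpl8, and each fell by 14.5 to 16.2%. No member reached a 2-fold change, where 1.03% of all genes tested were called with one. A lower value per counts in these bulk cultures may stand for fewer cells that express a gene or for less RNA per cell, which cannot be told apart.

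The gene mrpl23 codes for uL13m, whose bacterial relative is an early binder of the large ribosomal RNA. It had 77.9, 74.6 and 77.7 CPM in ntu_WT and 65.3, 66.0 and 62.3 CPM in wt_WT. The wild types did not overlap, and the values of the deletions, 70.5 to 73.1 CPM in ntu1_KO and 68.9 to 77.7 CPM in ntu2_KO, were all above wt_WT. The log2 fold change was -0.25 ± 0.06 (SE), with an adjusted p of 0.0180 in edgeR.

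The gene mrpl19, the uL11m gene described above, had 80.1, 79.4 and 87.1 CPM in ntu_WT and 66.7, 70.0 and 70.1 CPM in wt_WT. Every wt_WT library was below all 9 h+ libraries, the lowest of which was at 73.7 CPM in ntu1_KO. The log2 fold change was -0.25 ± 0.07, with an adjusted p of 0.0295 in edgeR.

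The gene mrpl16 codes for uL16m, whose bacterial relative lies near the sites of transfer RNA binding. It had 121.8, 116.0 and 125.6 CPM in ntu_WT and 107.0, 94.8 and 105.9 CPM in wt_WT. The wild types did not overlap, but 2 of the 3 ntu2_KO libraries, at 106.1 and 103.6 CPM, lay within the range of wt_WT. The log2 fold change was -0.24 ± 0.07, with an adjusted p of 0.0303 in edgeR. The annotation overlaps mrpl16 with lys4 on the same strand.

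The gene mrpl8 codes for bL17m, a bacterial-type protein. It had 88.4, 99.4 and 105.1 CPM in ntu_WT and 82.9, 82.8 and 85.2 CPM in wt_WT. All wt_WT values were below those of the 9 h+ libraries, by a margin from 85.2 CPM to 86.2 CPM in the lowest ntu2_KO library. The log2 fold change was -0.23 ± 0.07, with an adjusted p of 0.0467 in edgeR.

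**Figure D4:**
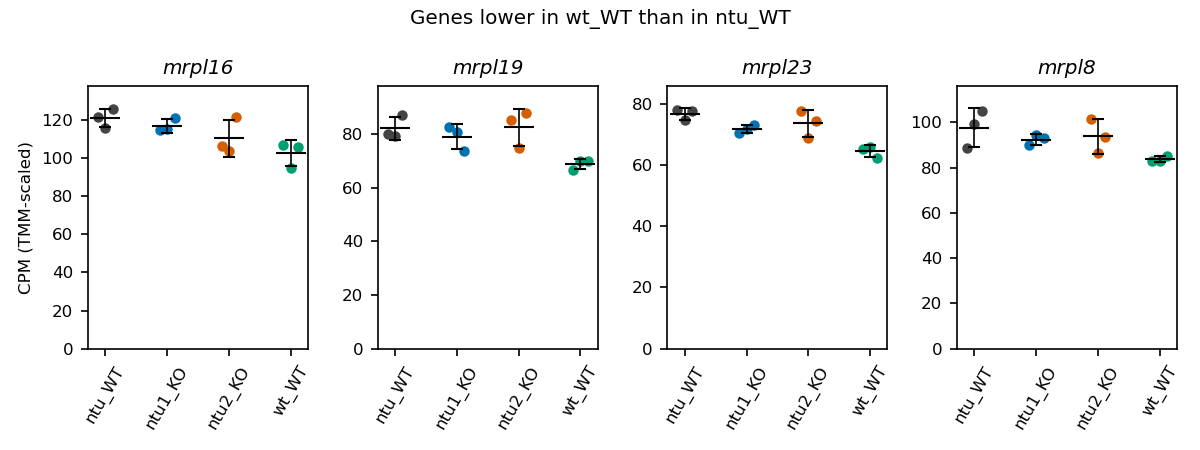
Level of mrpl16, mrpl19, mrpl23 and mrpl8 in TMM-scaled CPM, with 1 point per library and the mean ± SD of each group (n = 3). The wt_WT points lie below those of ntu_WT in every panel, and those of mrpl16 overlap the ntu2_KO points.

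These calls rested on few libraries. With 1 library left out, the count of lower genes was 3 without ntu_WT replicate 1 (mrpl19, mrpl8 and mrpl3, the last not among the 4), 1 without ntu_WT replicate 2 (mrpl23), 0 without ntu_WT replicate 3, 2 without wt_WT replicate 1 (mrpl16 and mrpl23), 0 without wt_WT replicate 2 and 0 without wt_WT replicate 3. Over these 6 fits the adjusted p in edgeR ran from 0.0416 to 0.0888 for mrpl23, from 0.0439 to 0.157 for mrpl19, from 0.0478 to 0.178 for mrpl16 and from 0.0150 to 0.230 for mrpl8. DESeq2 called the same 4 genes. Limma on log2(TPM + 1) called 0. Its log2 fold changes were -0.17 for mrpl23, -0.16 for mrpl19, -0.15 for mrpl16 and -0.14 for mrpl8. The median of all genes on the TPM scale lay above 0, as given in the next paragraph. These 4 values are therefore not distances to all genes. The wild types alone in edgeR gave 11 lower genes, and the share of all genes called lower in that fit is not given here.

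Most of the 39 genes shared the direction of those 4 on the count scale. The log2 fold change was below 0 for 27 of 39 genes, with a median of -0.05 against 0.00 over all genes tested. On the TPM scale the median of the 39 was 0.04 and that of all genes 0.09, so the sign turned while the distance to all genes stayed at -0.05. At an unadjusted p under 0.05 in edgeR, 12 of 39 were lower, where 11.7% of all genes were, and 1 was higher, where 11.6% were. Groups that did not overlap were found lower in wt_WT for 12 of 39 genes (17.3% of all genes) and higher for 2 (18.0% of all genes).

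The widest differences in that comparison were not called. The gene mrpl33 (uL30m) had 17.3, 15.7 and 20.2 CPM in ntu_WT and 14.2, 12.6 and 12.7 CPM in wt_WT. The groups did not overlap, and the log2 fold change was -0.43 ± 0.18 with an adjusted p of 0.150 in edgeR. The gene mrpl27 had the highest value, 0.22 ± 0.18 with an adjusted p of 0.473, and its wt_WT libraries at 10.08, 10.6 and 11.1 CPM lay just above those of ntu_WT, the highest of which was at 10.05 CPM. In the small subunit 7 of 8 genes were below 0, with a median of -0.12 on the count scale (-0.02 on the TPM scale, where the median of all genes was 0.09), and the smallest adjusted p was 0.107 in edgeR.

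Compared with wt_WT, neither deletion gave a call among the 39 genes. In ntu1_KO against wt_WT edgeR called 0 of 39, against 5.87% of genes tested, and DESeq2 called 0. The median log2 fold change was 0.12 against 0.00 over all genes (0.03 against -0.07 on the TPM scale). At an unadjusted p under 0.05, 8 of 39 passed, all of them higher in ntu1_KO, where 20.1% of all genes passed in either direction. The highest value was that of mrpl33, at 0.33 ± 0.18 with an adjusted p of 0.329, and the lowest that of mrpl20, at -0.24 ± 0.12 with an adjusted p of 0.254. Groups that did not overlap were higher in ntu1_KO for 14 of 39 genes (16.0% of all genes) and lower for 1 (16.2% of all genes). With only the compared groups in the fit, edgeR called 4 genes higher in ntu1_KO, mrpl40, mrps9, mrpl16 and mrpl19, by 0.19 to 0.22 on the log2 scale. The share of all genes called in that fit is not given here.

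In ntu2_KO against wt_WT edgeR called 0 of 39, against 3.78% of genes tested, and DESeq2 called 0. The median log2 fold change was 0.06 against 0.00 over all genes, and on the TPM scale it turned to -0.01 against -0.06. At an unadjusted p under 0.05, 7 of 39 passed, all of them higher in ntu2_KO, where 16.8% of all genes passed in either direction. The highest value was that of mrpl31, which codes for mL60, a mitochondria-specific protein. It had 45.8, 47.5 and 44.7 CPM in ntu2_KO and 38.5, 37.2 and 37.7 CPM in wt_WT. These groups did not overlap, with a log2 fold change of 0.28 ± 0.10 and an adjusted p of 0.130 in edgeR. The lowest was mrpl20 at -0.13 ± 0.12, which was 0.02 without ntu2_KO replicate 3, -0.04 without wt_WT replicate 2 and -0.22 without ntu2_KO replicate 2. Groups that did not overlap were higher in ntu2_KO for 5 of 39 genes (10.1% of all genes) and lower for 0 (11.4% of all genes). Without ntu2_KO replicate 2 edgeR called 1 gene higher, mrpl19, at 0.33 ± 0.08 with an adjusted p of 0.0212, and without ntu2_KO replicate 3 it called 1, mrpl35, at 0.25 ± 0.07 with an adjusted p of 0.0382. These comparisons and that of the wild types share the wt_WT libraries, so their values are given side by side only.

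The neighbouring lists were read in the same fits. Between the deletions and ntu_WT, and between the deletions, edgeR called no gene of any list. In wt_WT against ntu_WT, 2 of the 38 tested mitochondrial ribosomal protein genes with other names were lower and 0 higher, against 4.19% and 4.05% of all genes. They were sws2, at -0.29 ± 0.07 on the log2 scale with an adjusted p of 0.0160, and mrp7, at -0.27 ± 0.08 with an adjusted p of 0.0326 in edgeR. The median over the 38 was -0.11 (-0.01 on the TPM scale, where the median of all genes lay above 0). The gene mrp7 was also called higher in ntu1_KO against wt_WT, by 0.33 ± 0.08, and in ntu2_KO against wt_WT, by 0.44 ± 0.08, where 2.71% and 2.24% of all genes tested were called higher.

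Of the 39 nuclear genes for subunits of the respiratory chain and ATP synthase, 7 were lower and 0 higher in wt_WT than in ntu_WT at an adjusted p under 0.05 in edgeR, against 4.19% and 4.05% of all genes, and 38 had a log2 fold change below 0, with a median of -0.17. On the TPM scale the median was -0.07, 29 were below 0 and 1 was called. The median of all genes on that scale lay above 0, as given above, so these values are not distances to all genes. Among the called genes the largest changes were those of atp20 and atp16, both coding for subunits of ATP synthase, at -0.37 ± 0.07 and -0.28 ± 0.05. That of nde1, coding for a mitochondrial NADH dehydrogenase, was -0.23 ± 0.05. The lowest value of the list, -0.52, belonged to a gene that was not called. Against wt_WT, 6 of these genes were higher in ntu1_KO and 4 in ntu2_KO, against 2.71% and 2.24% of all genes. The 34 translation factors gave 0 calls in the wild-type comparison. In the deletions against wt_WT, 1 was higher in ntu1_KO (ppr8, by 0.24 ± 0.06) and 1 in ntu2_KO (cbp3, by 0.25 ± 0.06). The 141 cytosolic ribosomal protein genes gave 3 higher and 5 lower in the wild-type comparison, with a median of -0.09. On the TPM scale their median was 0.01, below that of all genes, with 11 higher and 0 lower in limma. The share of all genes called in limma is not given here. In ntu1_KO against wt_WT 3 cytosolic genes were lower (186 of all 5899 genes), and in ntu2_KO 1 was higher.

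**Figure D5:**
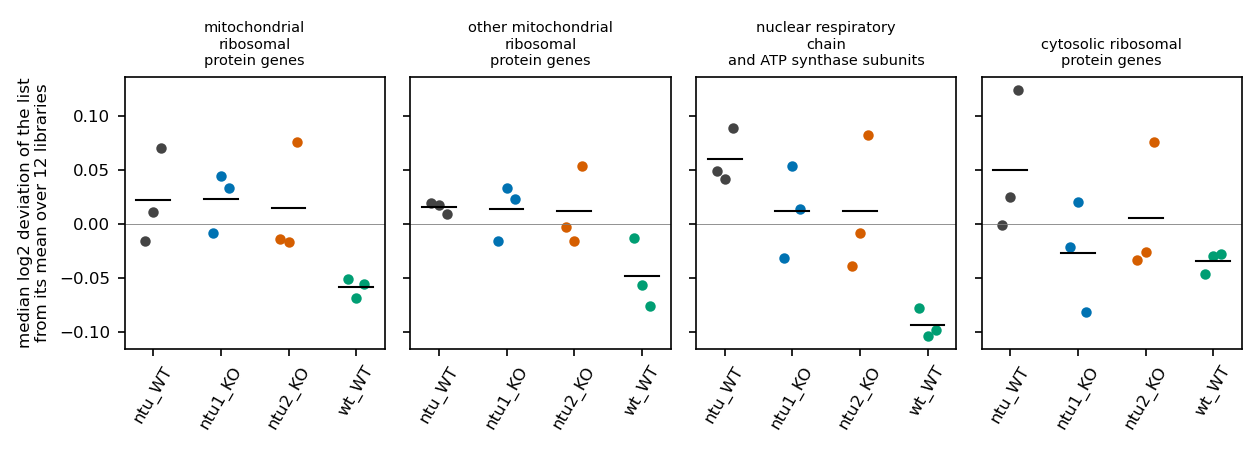
Median log2 deviation of each list from its own mean over the 12 libraries (TMM-scaled CPM), with 1 point per library and a line at the mean of each group. The wt_WT libraries lie between -0.07 and -0.05 for the mitochondrial ribosomal protein genes and between -0.10 and -0.08 for the respiratory chain genes, below every h+ library in both lists. For the mitochondrial ribosomal protein genes with other names they run from -0.075 to -0.012 and overlap h+ libraries, the lowest at -0.015 in ntu2_KO. For the cytosolic list they run from -0.046 to -0.027, above the lowest ntu1_KO library at -0.081.

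Transcripts of mitochondrial DNA itself were scarce in these libraries, which were made with a poly(A)-selecting kit. Of 36 mitochondrially encoded entries 5 were tested, and together the entries took 0.000274 to 0.000464% of counts in wt_WT and 0.000494 to 0.00615% in the h+ libraries. In wt_WT against ntu_WT, cob1 (cytochrome b) averaged 0.200 against 1.98 CPM, with a log2 fold change of -3.20 ± 0.77 and an adjusted p of 0.0144 in edgeR. The corresponding values of cox2 (a cytochrome c oxidase subunit) were 0.393 against 3.58 CPM, a log2 fold change of -3.13 ± 0.80 and an adjusted p of 0.0342. Both were near the floor, with 7 counts of cob1 and 14 of cox2 summed over wt_WT. Within ntu1_KO, cob1 ran from 0.395 to 4.45 CPM and cox2 from 0.264 to 7.30 CPM. Against wt_WT, cob1 was also called higher in ntu1_KO, by 3.15 ± 0.79, and in ntu2_KO, by 3.35 ± 0.79. The share of ribosomal RNA and the depth moved with the same groups, and their part in these values was not tested. The small-subunit protein gene var1, the ribosomal protein gene of mitochondrial DNA, had 0 counts in ntu_WT and wt_WT, 1 in ntu1_KO and 6 in ntu2_KO, summed over 3 libraries.

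Antisense entries are listed for 3 of the 39 genes and were kept out of the set. The entry antisense to mrpl4 (uL29m) averaged between 7.68 ± 1.95 TPM in wt_WT and 9.96 ± 1.01 TPM in ntu2_KO, where mrpl4 itself averaged 114.7 TPM over all libraries. The entry antisense to mrps17 (uS17m) averaged between 5.58 ± 1.78 TPM in ntu1_KO and 8.76 ± 1.69 TPM in ntu_WT. The entry antisense to mrps8 had 1 to 2 counts in each group over 3 libraries. The first 2 were tested, and edgeR called neither in any of the 6 comparisons.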

How the data were processed

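The authors deposited 2 tables over the 12 libraries, one of estimated counts per gene and one of TPM. The submitters' processing notes name Salmon 1.9.0 and the build ASM294v2. Of the non-zero deposited estimated counts, 91.2% were not whole, and rounding them changed no library total by more than 0.0027%. The deposited TPM sum to 1e+06 in each library. Names, products, neighbours and lengths came from the RefSeq annotation of ASM294v3, to which all 39 genes matched by locus tag. Since the builds differ, no coordinates or sequences are given, and lengths rest on the newer annotation.

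Rounded counts were tested with edgeR 4.0.16 (R 4.3.3, TMM, filterByExpr minimum count of 10, robust quasi-likelihood F-test), in 1 fit of the 9 h+ libraries and 1 of all 12. Calls needed a Benjamini-Hochberg adjusted p under 0.05 over all genes tested. DESeq2 1.42.0, limma 3.58.1 on log2(TPM + 1), other scalings, filters, thresholds and left-out libraries were alternatives. The scripts were tested on simulated data. Each library counted as 1 sample. Replicate libraries differed by more than counting noise, which does not show that they came from separate cultures.

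The members and lists were chosen with earlier results of these data known. Named were the called genes, the highest and lowest fold change in each comparison, the 3 highest and 3 lowest levels of each subunit, the 3 largest and 3 smallest coefficients of variation and, from other lists, up to 3 called genes per comparison. Genes named for their place in the genome, for lying in groups that did not overlap or for moving with 1 library were chosen after their values were seen.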

Additional observations from a re-analysis of the deposited data

How the results depend on the processing

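Scaling and the samples fitted mattered most in wt_WT against ntu_WT, with 4 lower genes. The count was 0 at an adjusted p under 0.01, with a 2-fold minimum, and in limma on log2(TPM + 1), log2(TPM + 0.1) or without a filter, and 11 with the wild types alone. It was 5 with DESeq2 size factors and 3 with upper-quartile factors. With 1 library left out it ran from 0 to 3, and the median from -0.0905 to -0.0435. In the limma fits on log2(TPM + 1), with or without the filter, and on log2(TPM + 0.1), the median of the 39 genes was 0.0409 and 0.0427 there, 0.0305 and 0.0309 in ntu1_KO against wt_WT, and -0.0101 and -0.0103 in ntu2_KO against wt_WT. In ntu1_KO against wt_WT, 4 genes were higher with the compared groups alone. In ntu2_KO against wt_WT, 0 to 1 genes were higher with 1 library left out (mrpl19 without ntu2_KO replicate 2, mrpl35 without replicate 3), and in ntu2_KO against ntu_WT 0 to 1 were lower (mrpl28). The median of ntu1_KO against ntu2_KO then ran from -0.00665 to 0.0447. The ratio of the subunits' median levels, 1.16 in TPM, was 0.917 per kb of exon length and 0.745 per kb of coding length, the latter an alternative chosen after seeing the data. The share of all genes called under these alternatives is not given here, and the causes were not tested.

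Replicate numbers did not pair the libraries: deviations of same-numbered libraries correlated between -0.168 and 0.151, with 2 of 18 pairs over 0.1. With the number as a replicate block, 4 genes were lower in wt_WT against ntu_WT (mrpl16, mrpl19, mrpl23 and mrps17), and 0 were called in the other 5 comparisons.

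The gene mrpl27, at 77.2 counts per library, had SEs of up to 0.21 on the log2 scale, and mrpl28, at 405.6 counts, of up to 0.18. Promoter motifs were not analysed here.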
